A study of Mus musculus with 13 samples.

Results

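The cells described here are the tumor neutrophils in which transcripts of the granule proteins Ngp and Mmp8 outnumbered those of the activation genes Acod1 and Il1f9, called Ngp and Mmp8 neutrophils below. A barcode was retained when it had at least 500 unique molecular identifiers (UMIs, one per captured transcript), at least 200 genes and under 25% mitochondrial UMIs. A retained barcode counted as a neutrophil when it had at least 20 UMIs of S100a8 and S100a9 together, at least 1 of Csf3r or Cxcr2, none of Cd3e or Cd79a, and at most 2 of C1qa, C1qb and C1qc. Neutrophils with 5 or more UMIs of the interferon genes Rsad2, Ifit1, Ifit3 and Cxcl10 were set apart, and the rest were divided by whether Ngp plus Mmp8 or Acod1 plus Il1f9 had more UMIs. The cells were thus chosen by measured UMIs of these 17 genes, whose levels are given as a description only. Ngp and Mmp8 neutrophils numbered 6013 of 93871 retained barcodes of the colon tumors, and of 118892 retained barcodes in the series. The same rule gave 28738 neutrophils in the tumors, of which 16999 (59.2%) had more Acod1 and Il1f9 (activated neutrophils), 2356 (8.20%) were tied and 3370 (11.7%) were interferon-responding.

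All 13 libraries came from 3 C57BL/6J mice of the genotype ApcMin/+; p16cis/cis, which carry an Apc mutation together with an epimutation (promoter methylation) of p16, and all were on the supplemented diet. This NIH-31 diet was enriched in methyl donors and their cofactors (folic acid, vitamin B12, betaine and choline), and was given to the dams before conception and then for life. Mouse A was 24 weeks old and gave tumors 5, 6, 7 and 8, mouse B was 23 weeks old and gave tumors 9 and 10, and mouse C was 20 weeks old and gave tumors 1, 2, 3 and 4; each also gave 1 library of adjacent mucosa. No library from a control diet was analysed here, so nothing below bears on the effect of the diet, and age, animal and any batch that goes with them cannot be told apart. The labels give both sexes within a single animal code (7 of 13 libraries labelled Female), whereas every library held 6949 to 12845 UMIs of the Y-linked genes Ddx3y, Eif2s3y, Kdm5d and Uty against 1 to 10 of Xist; sex was not used.

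Neutrophils are short-lived granulocytes that are made in bone marrow and enter inflamed tissue and tumors from the blood. During their maturation, azurophil granule proteins such as Mpo and Elane are transcribed first and specific granule proteins such as Ngp, Camp and Ltf next. Gelatinase granule proteins such as Mmp9 follow later, after division has ceased. Once in tissue, stimulated neutrophils transcribe cytokines and chemokines such as Il1b, Il1a and Cxcl2, and the metabolic enzyme Acod1, which makes itaconate.

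The promoters of both genes that define the cells, and of Camp, the granule gene with the widest difference below, are shown because C/EBP and PU.1 transcription factors are known regulators of granule genes. The 250 bases before the start in RefSeq (GRCm38.p6) are written in the direction of transcription, with capitals marking letters that match a C/EBP motif (TTGCNNAA) or a PU.1 motif (GAGGAAGT) on either strand. Ngp (ENSMUSG00000032484) lies at chr9:110419558-110419807 on the plus strand, Mmp8 (ENSMUSG00000005800) at chr9:7558179-7558428 on the plus strand, and Camp at chr9:109849457-109849706 on the minus strand.
Ngp: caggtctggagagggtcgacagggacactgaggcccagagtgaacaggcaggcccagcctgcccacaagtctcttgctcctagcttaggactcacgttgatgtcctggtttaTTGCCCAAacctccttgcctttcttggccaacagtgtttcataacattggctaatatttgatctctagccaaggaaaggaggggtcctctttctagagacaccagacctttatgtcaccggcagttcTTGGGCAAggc
Mmp8: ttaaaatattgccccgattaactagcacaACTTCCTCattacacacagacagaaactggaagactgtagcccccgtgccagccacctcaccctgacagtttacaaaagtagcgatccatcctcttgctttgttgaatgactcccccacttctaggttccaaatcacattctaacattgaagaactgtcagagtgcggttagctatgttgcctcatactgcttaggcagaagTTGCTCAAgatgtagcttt
Camp: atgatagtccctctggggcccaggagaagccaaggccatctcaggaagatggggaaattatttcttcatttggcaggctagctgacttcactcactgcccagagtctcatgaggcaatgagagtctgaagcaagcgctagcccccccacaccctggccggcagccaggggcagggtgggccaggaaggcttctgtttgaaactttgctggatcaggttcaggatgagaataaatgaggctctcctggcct
The Ngp window held 2 C/EBP matches, at -138 and -11 from the start, and the Mmp8 window held 1 C/EBP match at -19 and 1 PU.1 match at -221. No match of either motif was present in the Camp window. The search covered 16 genes, namely Ngp, Mmp8 and the specific granule list used below, which also holds Ifitm6 and the receptor gene Ltb4r1. Of these, 14 had an entry. The C/EBP letters were in 6 of the 14 (42.9%: Ngp, Mmp8, Lcn2, Ltf, Anxa1 and Fcnb) against 3142 of 32851 promoters (9.56%) in all. The PU.1 letters were in 3 of the 14 (21.4%: Mmp8, Olfm4 and Itgb2l) against 802 promoters (2.44%). These matches describe the letters and do not show binding.

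Ngp and Mmp8 neutrophils had a median of 2766.5 to 3670 UMIs and 708 to 914 genes per cell across tumors, and activated neutrophils had 2441 to 3053 UMIs. The cells of a tumor summed to 1341118 to 3757260 UMIs, 24331880 in all. A high doublet score was given to 685 of the cells (4.84 to 15.6% per tumor) and to 2467 activated cells (4.44 to 20.0%), and these cells were kept. Any pair of tumors shared 10 to 39 retained barcodes (at most 0.391% of them), and the Ngp and Mmp8 neutrophils shared at most 1 per pair.

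Ngp, Mmp8 and S100a8 chose the cells, so their detection in them was fixed by the rule and is given only beside the background in other populations. After each cell was thinned to 2000 UMIs, which left out 498 shallower cells, 60.5% of the cells had Ngp, against 15.3% of activated neutrophils, 0.101% of T cells and 0.0439% of epithelial cells thinned to the same depth; without thinning the first 2 shares were 67.8% and 19.4%. Mmp8 was detected in 87.1%, 38.3%, 0.504% and 0.113% of these populations, respectively. In interferon-responding and tied neutrophils at this depth, Ngp was in 25.5% and 20.4% and Mmp8 in 43.5% and 52.6%, above the activated neutrophils. The T cells and epithelial cells were barcodes without Csf3r and Cxcr2, which leaves out barcodes that carried these neutrophil transcripts. Retnlg, a resistin-like secreted protein of mature neutrophils that the rule did not read, was in 98.5% of the cells and 97.4% of activated neutrophils, but in 2.57% of T cells and 2.29% of epithelial cells. S100a8, a calcium-binding alarmin, was in 14.98% of T cells and 11.01% of epithelial cells at this depth, so single S100a8 UMIs outside neutrophils were frequent.

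The proteases and Mpo that define early maturation stages were at or near 0, while broader genes of the same lists were not. Summed over all 6013 cells, there were 9 UMIs of Mpo, 14 of Elane (12 of them in tumor 6), 4 of Ctsg, 6 of Ms4a3 and 36 of Fcnb, and 34 cells (0.565%) had 2 or more UMIs of Mpo, Elane, Prtn3 and Ctsg. Prtn3, a further azurophil protease, had 224 UMIs, 85 of them in tumor 6. Of division genes, 80 cells (1.33%) had 2 or more UMIs of Mki67, Top2a and Birc5. Mki67 averaged 17.05 counts per 1e6 UMIs (CPM, a gene's UMIs scaled to the summed UMIs of a population in a tumor) against 24.6 CPM in activated neutrophils (log2 -0.47, lower in 9 of 10 tumors). Serpinb1a, a protease inhibitor and the one gene of 6 on the azurophil list above 20 CPM, averaged 74.9 against 53.5 CPM (0.52 ± 0.53, higher in 8 of 10 tumors). On the proliferation list 4 of 10 genes were above 20 CPM in either population, 1 of them higher and none lower in all 10 tumors (median 0.05): Hmgb2, a chromatin protein also found outside dividing cells, averaged 784 against 708 CPM (0.15, higher in 10 of 10), Ube2c differed by 0.34 (higher in 7) and Stmn1 by -0.05 (positive with TMM scaling). Of the receptors of mature neutrophils, 1 UMI of either was required by the rule, so their levels are a description: Cxcr2, the receptor for Cxcl chemokines, was at 513, 764 and 1059 CPM and Csf3r, the G-CSF receptor, at 479, 628 and 755 CPM in the lowest, median and highest tumor. With Mpo, Elane, Ctsg, Mki67, Top2a and Birc5 in few cells, the population is named by Ngp and Mmp8 alone, and its maturation stage is left unnamed.

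Within the population, 3781 cells (62.9%) had UMIs of both Ngp and Mmp8, 1937 (32.2%) of Mmp8 only and 295 (4.91%) of Ngp only. Acod1 or Il1f9 was also present in 4657 of the cells (77.4%), so the rule divides cells by a balance and not by presence alone. Cells with both genes had the highest Retnlg, at 32019 ± 2399 CPM (SD, n = 10 tumors), against 23594 ± 4724 CPM in Ngp-only and 21362 ± 2879 CPM in Mmp8-only cells. Lcn2, an iron-siderophore-binding granule protein, followed the same order at 5844, 4993 and 3505 CPM. The subsets differ in depth and were divided by the same UMIs, so these levels are descriptive.

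A small number of cells carried most of the Camp and Ltf transcripts. Ngp reached 1234 UMIs and Camp, the cathelicidin precursor, 1638 UMIs in a single cell. The 60 cells with the most UMIs of each gene held 94.7% of all Camp and 94.6% of all Ltf UMIs (lactoferrin, an iron-binding granule protein), 25.2% of Ngp and 10.5% of Cd177 UMIs, but 5.42% of Lcn2, 4.52% of Mmp8, 3.74% of Wfdc21 and 3.56% of Retnlg UMIs. Most UMIs of the abundant granule genes thus lay in the other cells. In 124 cells (2.06%) with 2 or more UMIs of Camp and Ltf, pooled Ngp was 10376 CPM against 931 CPM in the other cells, Lcn2 was 10173 against 4933 CPM, and Cd177, a neutrophil surface protein stored in specific granules, was 683 against 218 CPM. Retnlg in them was 30984 against 28391 CPM and Mpo and Elane stayed at or near 0. These granule-rich cells had a median of 5136.5 UMIs, 24 (19.4%) had a high doublet score, and they made up 0.612% (tumor 2) to 3.40% (tumor 9) of the cells.

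A second minority carried monocyte genes. In 89 cells (1.48%) there were 3 or more UMIs of Ccr2, Cx3cr1, Adgre1, Mrc1 and Ms4a7, and the share was 2.89% of Mmp8-only cells, 0.810% of cells with Ngp and 0.688% of activated neutrophils. Chil3, a chitinase-like protein of monocytes, macrophages and neutrophil precursors, was at 4316 CPM in these 89 cells and 122 CPM in the rest. Cybb, the membrane subunit of the NADPH oxidase, was at 637 against 57.8 CPM, whereas Retnlg was at 5918 against 29221 CPM. Their median depth was 8615 UMIs against 3120 UMIs and 51 of them (57.3%) had a high doublet score.

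In the mucosa libraries 33 of 25021 retained barcodes (0.132%) met the rule, 3, 17 and 13 from mucosa 1, 2 and 3. All 16 from mucosa 1 and 3 had a high doublet score, and the 17 from mucosa 2 had a median of 1310 UMIs. Tumor and mucosa were dissociated differently, by an enzyme kit and by EDTA with TrypLE, respectively, and the shares were not compared.

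The abundance of the cells was examined by tumor and by mouse. Of retained barcodes they made up 3.89, 5.95 and 9.55% in the lowest, median and highest tumor (mean 6.38 ± 1.87%, SD, n = 10). In mouse A the shares were 8.35, 9.55, 5.80 and 8.55% (tumors 5 to 8), in mouse B 5.46 and 3.89% (tumors 9 and 10), and in mouse C 4.18, 6.07, 6.11 and 5.83% (tumors 1 to 4). Thus 3 tumors of mouse A were above all others, and tumor 7 lay within the range of mouse C. The means were 8.06 ± 1.60, 4.68 ± 1.11 and 5.55 ± 0.920%, which differed in an exact permutation test of the F statistic over 3150 arrangements (two-sided, p = 0.0394), but not after Benjamini-Hochberg adjustment over both shares tested (adjusted p = 0.0787, exact permutation test). Without tumor 4, 5, 6, 8 or 10, p was above 0.05.

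Among neutrophils the cells made up 14.3, 21.7 and 24.98% in the lowest, median and highest tumor (mean 20.8 ± 3.63%). The 4 tumors of mouse A were at 24.98, 24.9, 22.6 and 22.3%, those of mouse B at 17.2 and 18.1%, and those of mouse C at 14.3, 21.0, 24.1 and 18.5%. Mouse C alone spanned nearly the whole range, and the difference between mice did not pass the exact permutation test (F, p = 0.0952, adjusted p = 0.0952). Each share carries a counting error that is small beside the spread between tumors, as the intervals in the plot of shares show; these intervals cover counting error only. Tumors of a mouse share the animal, so p measures the spread between tumors.

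**Figure D1:**
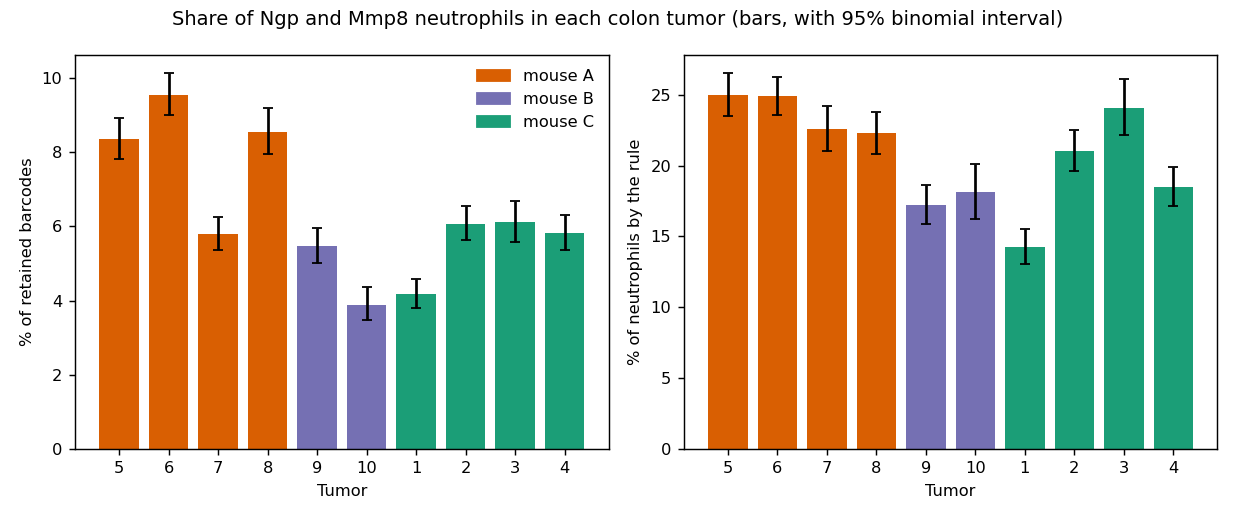
Share of Ngp and Mmp8 neutrophils in each of 10 tumors, ordered by mouse, as percent of retained barcodes and as percent of neutrophils by the rule; bars are shares and whiskers 95% exact binomial intervals. The highest share of retained barcodes is 9.55% in tumor 6 of mouse A, and the lowest share of neutrophils is 14.3% in tumor 1 of mouse C.

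Genes of the rule were themselves uneven between mice. In the Ngp and Mmp8 neutrophils, Il1f9 was 305 ± 18.1 CPM in mouse A and 113 ± 24.8 CPM in mouse C (SD, n = 4 tumors each), Mmp8 was 1408 ± 109 and 916 ± 154 CPM, Cxcr2 was 983 ± 59.5 and 630 ± 84.1 CPM, and S100a8 was 71253 ± 7962 and 105243 ± 10517 CPM. Their part in the shares was not tested.

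The cells were next set beside the activated neutrophils of the same tumor. Because both were divided on RNA of the same cells, every value of this comparison is a description without a test. The genes that divided them read as the rule required: Ngp was 903, 1106 and 1821 CPM in the lowest, median and highest tumor against 114 ± 31.3 CPM in activated neutrophils, Mmp8 707, 1189 and 1532 CPM against 297 ± 101 CPM, and Acod1 386, 475 and 694 CPM against 1639 ± 231 CPM. Of 3889 other genes at 20 CPM or more in either population, 318 (8.18%) were higher and 648 (16.7%) lower in all 10 tumors. With a mean log2 difference of at least 1 as well, 8 (0.206%) were higher and 43 (1.11%) lower; the counts were 16 and 55 with a margin of at least 2 UMIs and 20 and 69 without cells of high doublet score. The median gene differed by -0.11 on the log2 scale. With TMM scaling (which centres the bulk of genes) the median was 0.02, the counts in all 10 tumors turned to 456 higher and 287 lower, and those of at least 1 to 21 higher and 30 lower, so small differences below are to be read against that shift. Without cells of high doublet score, 340 genes were higher and 671 lower in all 10 tumors, of 3351 at 20 CPM or more. By list, these counts were 0 and 20 of 30 for receptors, 0 and 9 of 13 for transcription factors, and 0 and 11 of 16 for interferon response. They were 0 and 9 of 10 for survival, 1 and 11 of 21 for glycolysis and hypoxia, and 3 and 3 of 10 for S100 and iron. For B and plasma cell genes they were 0 and 1 of 3. The list counts with all cells follow.

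Specific granule genes were higher as a group. Of 14 on the list, 12 were above 20 CPM, and 8 of these were higher and none lower in all 10 tumors, with a median of 0.89 (1.01 with TMM scaling) against -0.11 over all genes. Lcn2 was at 4653, 5120 and 6254 CPM in the lowest, median and highest tumor against 2323, 2714 and 3465 CPM in activated neutrophils, a log2 difference of 0.89 ± 0.12 (SD over 10 tumors). The ranges did not overlap. Ifitm6, a transmembrane protein of myeloid cells, is counted on this list although it is not a granule protein. It was at 953, 1337 and 1504 CPM against 396, 623 and 770 CPM (1.12 ± 0.20), again without overlap. Cd177 was at 110, 230 and 300 CPM against 50.4, 102 and 164 CPM (1.16 ± 0.23), and higher in each tumor although the ranges overlap. Lyz2, lysozyme, differed by 0.88, Wfdc21 by 0.70, Anxa1, an anti-inflammatory phospholipid-binding protein, by 0.58 and Hp, haptoglobin, by 0.36.

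Camp had the largest mean difference of all genes at or above 50 CPM, 4.94 ± 2.03, with a wide scatter between tumors. It was at 22.8, 123 and 740 CPM in the lowest, median and highest tumor against 0.887, 3.61 and 10.4 CPM in activated neutrophils. The highest value, that of tumor 4, came mostly from a single cell, which held 1638 of its 1786 Camp UMIs. The lowest activated level lies under the pseudocount of 1 CPM, so the size of the difference depends on the pseudocount. Most Camp UMIs were in the granule-rich cells, and without those 124 cells Camp averaged 7.19 CPM rather than 212 CPM. The cells were left out by these same UMIs, so a lower level follows by construction, and as activated neutrophils were not filtered in this way the remaining level was not set against theirs. With all cells, Ltf was higher in 9 of 10 tumors (2.51 ± 1.70), and so was Chil3 (1.36 ± 0.93). Without the 89 cells rich in monocyte genes, and activated cells of the same kind, Chil3 was 115 against 49.6 CPM and higher in 10 of 10 tumors (1.20).

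The gelatinase granule list was mixed. Retnlg was at 25868, 29059 and 30958 CPM in the lowest, median and highest tumor against 12402, 14347 and 18921 CPM in activated neutrophils, a log2 difference of 0.95 ± 0.14 without overlap. Mmp9, the gelatinase that gives the granule its name, was at 745, 966 and 1203 CPM against 485, 661 and 805 CPM (0.55 ± 0.08). Mmp25, a membrane-anchored protease, differed by 0.78 and Padi4, which citrullinates histones, by 0.69. The formyl peptide receptor Fpr1 (-0.33) and the metal transporter Slc11a1 (-0.38) were lower in all 10 tumors, but not with TMM scaling. In all, 4 of 8 measured genes were higher and 2 lower in all 10 tumors, with a median of 0.30.

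Components of the NADPH oxidase, which makes superoxide, were higher in part or, with TMM scaling, for the most part. Of the 6 oxidase genes, 3 were higher in all 10 tumors (Cybb 1.24 ± 0.39, Rac2 0.34 and Cyba 0.28) and none lower; with TMM scaling Ncf1 and Ncf4 joined them, for 5 of 6. Without cells rich in monocyte genes, the Cybb difference was 1.15. The lipid mediator list was mixed, with 2 of 7 higher and 2 lower in all 10 tumors and a median of -0.10 (positive with TMM scaling). The 5-lipoxygenase Alox5 (0.46) and its activating protein Alox5ap (0.36) were higher in all 10 tumors, and Ptgs2, the inducible cyclooxygenase, was lower (-1.24), while Lta4h, the leukotriene A4 hydrolase, differed by -0.10 (0.02 with TMM scaling). Other genes with the largest positive differences were Adpgk, an ADP-dependent glucokinase (1.57 ± 0.21), Ly6c2, a surface antigen of monocytes and immature neutrophils (1.33 ± 0.21), Syne1, a nuclear envelope protein (1.03 ± 0.16), Prok2, the prokineticin Bv8 (1.00 ± 0.24), and Scrg1 (0.92 ± 0.18).

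Inflammatory effector genes were lower as a group. Of 27 on the list, 25 were above 20 CPM, of which 21 were lower and none higher in all 10 tumors, 14 of them by at least 1; the median was -1.11 (-0.98 with TMM scaling). Il1a, the interleukin 1 alpha gene, was at 28.6, 35.4 and 58.9 CPM in the lowest, median and highest tumor against 118, 165 and 313 CPM in activated neutrophils (-2.18 ± 0.33). Ccl3, a chemokine for monocytes and lymphocytes, was at 37.5, 94.2 and 124 CPM against 204, 367 and 538 CPM (-2.04 ± 0.34). Neither overlapped between the populations. Cxcl3, a ligand of Cxcr2, was at 116, 263 and 636 CPM against 552, 991 and 1455 CPM, with the highest tumor (tumor 2) inside the activated range.

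The most abundant cytokine transcripts were lower but far from absent. Il1b was at 3893, 6026 and 7429 CPM in the lowest, median and highest tumor against 5873, 9217 and 12178 CPM in activated neutrophils (-0.66 ± 0.14), and 96.3% of the cells had it at 2000 UMIs against 98.7% of activated neutrophils. At that depth the share was 6.56% in T cells, 3.11% in epithelial cells and 78.9% in macrophages, which express the gene. Cxcl2 was at 4164, 6622 and 14563 CPM against 9059, 14952 and 27354 CPM (-1.14). Il1rn, the interleukin 1 receptor antagonist, was lower as well (133 against 337 CPM, -1.35 ± 0.18), as were Csf1 (-1.40 ± 0.30), Tnf (-1.11), the NF-kB inhibitor Nfkbia (-1.31), and Cd274, which encodes PD-L1 (-1.26). Osm was the nearest to equal (-0.03, lower in 6 of 10 tumors, and positive with TMM scaling).

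**Figure D2:**
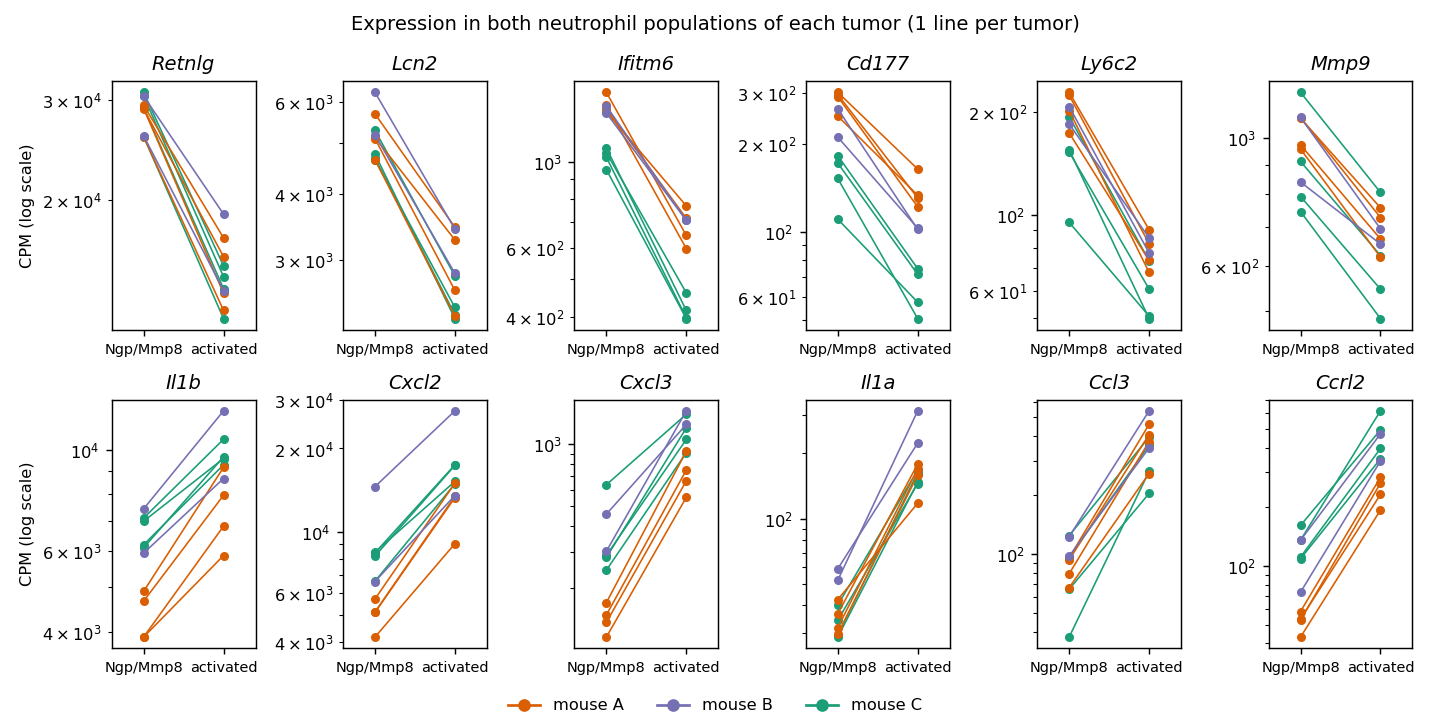
Levels of 12 genes in Ngp and Mmp8 neutrophils and in activated neutrophils, in CPM on a log axis, with 1 line per tumor for 10 tumors. The first 6 genes (Retnlg, Lcn2, Ifitm6, Cd177, Ly6c2 and Mmp9) are lower and the last 6 (Il1b, Cxcl2, Cxcl3, Il1a, Ccl3 and Ccrl2) higher in activated cells in all 10 tumors.

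Receptors and survival genes were mostly lower. Of 30 measured receptor and adhesion genes outside the rule, 20 were lower and 2 higher in all 10 tumors (10 and 1 with TMM scaling), with a median of -0.28. Ccrl2, an atypical chemoattractant receptor, was at 43.1, 90.9 and 161 CPM in the lowest, median and highest tumor against 192, 347 and 619 CPM (-2.01 ± 0.25), and Icam1, an adhesion molecule, was 34.7 against 118 CPM (-1.78 ± 0.30). The C-type lectin Clec4n, on none of the lists, was 30.8 against 95.3 CPM (-1.63 ± 0.34). Smaller differences were seen for Ptafr, the platelet-activating factor receptor (-0.76), Clec4e (-0.62), Cxcr4, the marrow-homing receptor of aged neutrophils (-0.59), and Cd14, the lipopolysaccharide co-receptor (-0.46). Itgb2 (0.18) and Trem3 (0.19) were higher in all 10 tumors. Of 10 survival genes, 8 were lower in all 10 tumors (median -0.54), and 7 with TMM scaling. The largest differences were those of Bcl2a1a (-1.54) and Bcl2a1b (-1.40 ± 0.37), near-identical copies that can share reads with each other and with Bcl2a1d. Pim1 differed by -0.63 and Mcl1 by -0.15 (-0.03 with TMM scaling).

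Transcription factor and early response genes were lower in part. Among 13 transcription factor genes, 8 were lower and 1 higher in all 10 tumors (4 and 1 with TMM scaling), namely Bhlhe40 (-0.92), Runx1 (-0.63), Xbp1 (-0.58), Klf6 (-0.41), Junb (-0.28), Hif1a (-0.24), Cebpb (-0.22) and Mxd1 (-0.09, positive with TMM scaling), and Spi1, which encodes PU.1 (0.14). Cebpe, the factor for specific granule genes, averaged 9.79 against 6.05 CPM, under the 20 CPM limit. Of 13 immediate early and heat shock genes, 7 were lower and none higher in all 10 tumors, including Egr1 (-0.94) and Atf3 (-0.72). With TMM scaling 6 were lower and 1 higher (Fos, 0.36), and without cells of high doublet score 6 were lower. Dusp2, a phosphatase of MAP kinases, was 23.0 against 61.4 CPM (-1.43 ± 0.35).

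Among the remaining lists, 9 of 16 interferon response genes were lower in all 10 tumors (median -0.36; 6 with TMM scaling), with Gbp2 (-1.31) and Ifi47 (-1.11) past 1, although interferon-responding cells had been set apart from both populations. For glycolysis and hypoxia, 10 of 21 were lower and 2 higher (median -0.36); Ero1l (-1.17) and Egln3 (-1.09), both hypoxia-responsive, were lower, and the glucose transporter Slc2a3 (0.23) and hexokinase Hk3 (0.34) were higher. Of 12 immune regulation genes, 6 were lower (median -0.31; 3 with TMM scaling), Olr1, the LOX-1 scavenger receptor, by 1.15 on the log2 scale. The S100 and iron list had 4 higher and 2 lower of 10 (median -0.04, positive with TMM scaling), with S100a6 higher (0.43) and the ferritin chains Fth1 (-0.45) and Ftl1 (-0.34) lower.

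**Figure D3:**
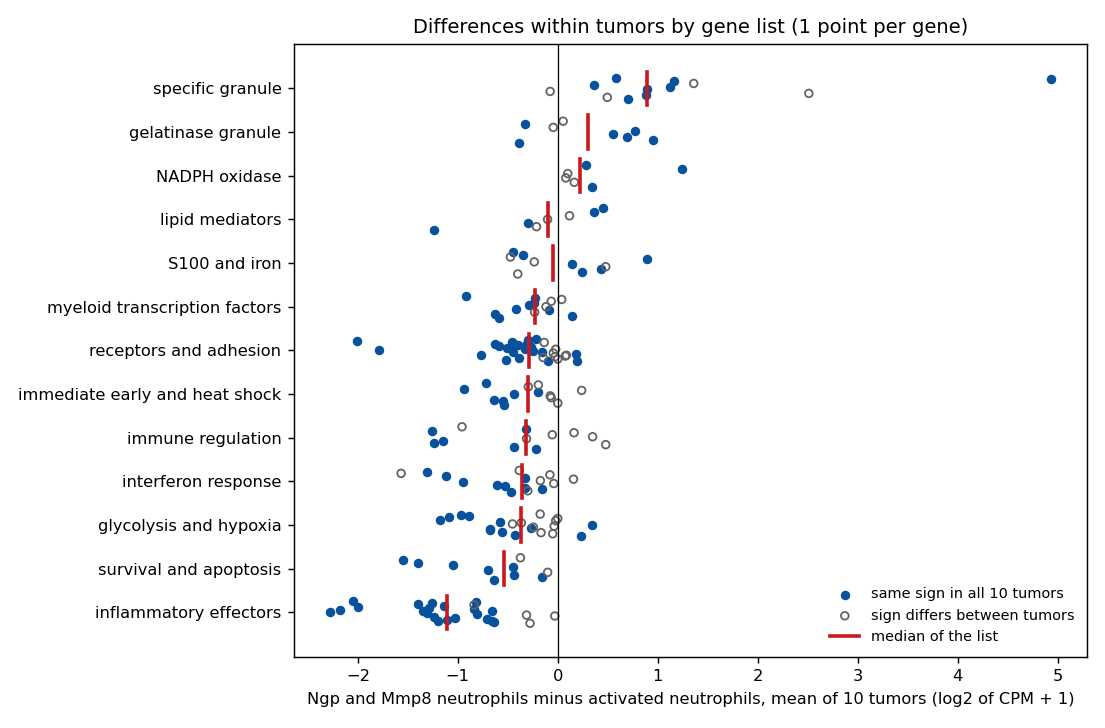
Mean log2 difference (Ngp and Mmp8 neutrophils minus activated neutrophils, pseudocount 1 CPM) of each measured gene for 13 lists; filled points have the same sign in 10 of 10 tumors and red bars mark list medians. The specific granule list has a median of 0.89 and the inflammatory effector list one of -1.11.

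Among the listed markers of other cell types above 20 CPM, only Ly6c2 had the same sign in all 10 tumors. No T cell, eosinophil, mast cell or fibroblast marker reached 20 CPM, and the eosinophil genes Epx and Il5ra were at 0 in Ngp and Mmp8 neutrophils. Of 3 B and plasma cell, 8 epithelial and 3 erythroid genes above 20 CPM, none had the same sign in 10 tumors. Their list medians were -0.09, -0.45 and 0.38. The epithelial median was -0.33 with TMM scaling and -0.87 without cells of high doublet score. The summed level per tumor was 235 to 2201 CPM against 271 to 2494 CPM for the B and plasma cell list, 1253 to 2280 against 1497 to 3833 CPM for the epithelial list, and 659 to 1277 against 514 to 1107 CPM for the monocyte and macrophage list, where 1 of 7 genes, Ly6c2, was higher in all 10 tumors. Erythroid markers reached 9006 CPM in tumor 1, mostly Hbb-bs at 6365 CPM. Their part in the differences above was not tested.

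Interferon-responding and tied neutrophils served as further neighbours. A high doublet score was given to 1045 of 3370 interferon-responding cells (12.3 to 39.5% per tumor). Of the 2356 tied cells, 1036 had no UMI of Ngp, Mmp8, Acod1 or Il1f9. Il1a was 171 CPM in these and 59.7 CPM in ties above 0. Retnlg was 12750 ± 2463 CPM in interferon-responding and 16964 ± 1640 CPM in tied neutrophils, and Ngp and Mmp8 neutrophils were above both in 10 of 10 tumors (log2 1.19 ± 0.25 and 0.76 ± 0.11). Lcn2 was likewise higher by 0.91 ± 0.21 and 0.83 ± 0.16, and Ifitm6 by 1.07 ± 0.30 and 1.05 ± 0.21. Il1a was lower by 2.87 ± 0.60 on the log2 scale than in interferon-responding cells, but by only 0.77 ± 0.81 than in tied cells, with 2 of 10 tumors higher. Cybb was higher than in tied cells in 10 of 10 tumors (0.95 ± 0.61) and differed from interferon-responding cells by 0.05 ± 0.49, higher in 6.

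Across the rule's threshold the levels changed in steps rather than at a single point. Cells just inside, with 1 more UMI of Ngp and Mmp8 than of Acod1 and Il1f9, numbered 1334, and cells just outside, tied above 0 or 1 UMI below, numbered 1320 and 2474. Retnlg was 32054 CPM with 3 or more UMIs above, 21763 CPM with 1 above, 21473 CPM in ties above 0, 16284 CPM with 1 below and 14634 CPM with 3 or more below. For Retnlg the cells just inside thus lay nearer to the tied cells than to the well-separated ones. Lcn2 gave 5830, 3768, 3570, 2927 and 2793 CPM in these strata, with the cells just inside again nearer to the tied cells. Cxcl3 gave 233, 358, 530, 558 and 1154 CPM, and Il1a 36.9, 41.9, 59.7, 62.5 and 209 CPM. For Il1a the cells just inside lay nearer to the well-separated ones. Camp was 321 CPM with 3 or more above but 5.57 CPM with 2 above and 5.35 CPM with 1 above. With 2 above, Retnlg was 23343 CPM, so much of its change lay inside the population, and Cxcl3 was 392 CPM, out of order with the cells 1 above. With 2 below they were 15428 and 589 CPM. The strata also differed in depth. The median over tumors was 3402.5, 2894.5 and 2757.5 UMIs with 3 or more, 2 and 1 above, and 2451.5 UMIs with 1 below. The part of depth was not tested. The 1036 cells with none of the 4 genes were shallower and had Retnlg at 8530 CPM.

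The rule did not read the animal, so UMIs summed over the cells of each tumor were tested between mice. It did read genes that were uneven between mice, so the cells it chose can differ by mouse. Ngp-only cells made up 1.74 to 3.17% of the cells in the tumors of mouse A and 5.30 to 12.5% in those of mouse C. The part of this in the calls below was not tested. The edgeR quasi-likelihood test of 8898 genes called 566 between mice A and C (6.36%; adjusted p under 0.05), 246 higher and 320 lower in A. Between A and B it called 0 genes, with 682 at an unadjusted p under 0.05, and DESeq2 called 28. Between B and C it called 3 (0.0337%; Prnp, Lipg and F630028O10Rik, all higher in B by 1.45, 1.82 and 1.19 on the log2 scale), with 797 at an unadjusted p under 0.05, and DESeq2 called 45. The 3 calls between B and C became 0 with a margin of at least 2 UMIs and 0 without cells of high doublet score. Mouse B had 2 tumors. The A-C count leaned on single tumors: it was 240 without tumor 1, 221 without tumor 2, 333 without tumor 5, 270 without tumor 6, 249 without tumor 7 and 876 without tumor 3.

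Hmox1, Jun, Plin2 and Klf6, each called on a different list, were higher in mouse A. Hmox1, the heme-degrading oxygenase, was at 206, 252, 203 and 246 CPM in tumors 5 to 8 of mouse A and 41.6, 71.7, 67.7 and 70.4 CPM in tumors 1 to 4 of mouse C (log2 1.81, SE 0.18, adjusted p = 0.000229). Jun was at 409, 380, 448 and 438 CPM against 158, 99.9, 152 and 195 CPM (1.44, SE 0.17, adjusted p = 0.000448). For both, tumors 9 and 10 of mouse B lay between, at 106 and 139 CPM for Hmox1 and 203 and 261 CPM for Jun. Plin2, the lipid droplet coat protein, was 223 ± 24.2 against 117 ± 7.02 CPM (0.90, adjusted p = 0.00144), and Klf6 was 573 ± 46.1 against 334 ± 42.0 CPM (0.75, adjusted p = 0.0031). Jun was also higher in mouse A than in mouse C in activated neutrophils (519 against 245 CPM), B cells (442 against 154 CPM), epithelial cells (1016 against 524 CPM) and macrophages (498 against 252 CPM). In T cells the tumors of both mice overlapped (267 ± 55.8 against 211 ± 33.7 CPM).

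Of 13 genes tested on the specific granule list, 3 were higher in mouse A and none lower (median 0.18), which is 23.1% called against 6.36% over all genes. That 6.36% is over 8898 genes, many of them under 20 CPM, whereas the lists hold mostly genes above it. Cytosolic ribosomal genes had 23.0% called and nuclear respiratory chain genes 41.3%. List shares above 6.36%, here and below, are therefore not read as enrichment of a list. Cd177 was at 295, 300, 291 and 249 CPM in mouse A against 152, 110, 172 and 182 CPM in mouse C (0.85, SE 0.14, adjusted p = 0.00427), Olfm4, olfactomedin 4, at 75.4, 92.1, 88.9 and 70.6 CPM against 47.0, 33.4, 40.3 and 40.6 CPM (0.99, adjusted p = 0.00441), and Ifitm6 at 1400 ± 71.9 against 1029 ± 55.9 CPM (0.40, adjusted p = 0.0191). The tumors of both mice did not overlap for any of them. Lcn2 (0.05, SE 0.12, adjusted p = 0.867), Retnlg (-0.07, SE 0.10, adjusted p = 0.73), Camp (-1.003, SE 0.76, adjusted p = 0.502) and Ltf (0.55, SE 0.68, adjusted p = 0.705) did not pass the edgeR test. The call for Ifitm6 was lost in 4 of the alternatives (highest adjusted p 0.201).

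Inflammatory genes moved both ways. Of 25 tested, 4 were lower in mouse A (Il1b, Cxcl3, Ptgs2 and Vegfa) and 2 higher (Tnf and Hcar2), with a median of 0.04; that is 24.0% called, against 6.36% over all genes. Il1b was at 3893, 4901, 3893 and 4666 CPM in mouse A and 7092, 6981, 6108 and 6200 CPM in mouse C (-0.64, SE 0.13, adjusted p = 0.00991), with 5944 and 7429 CPM in mouse B. Cxcl3 was 142 ± 22.7 against 363 ± 183 CPM (-1.40, adjusted p = 0.012), and Ptgs2 86.0 ± 26.2 against 159 ± 32.6 CPM (-0.93, adjusted p = 0.0175). Tnf, by contrast, was 57.8 ± 8.30 against 32.0 ± 1.11 CPM (0.81, adjusted p = 0.00451) and Hcar2, the receptor for beta-hydroxybutyrate and niacin, 775 ± 176 against 407 ± 21.2 CPM (0.90, adjusted p = 0.00587). The calls for Il1b and Tnf were each lost in 1 alternative, for Ptgs2 in 2 and for Vegfa in 3. Cebpb, the C/EBP factor of emergency granulopoiesis, was at 2274, 2314, 2269 and 2592 CPM against 3781, 4167, 3640 and 3342 CPM (-0.70, SE 0.11, adjusted p = 0.00394).

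Glycolysis and hypoxia genes were called in one direction. Of 22 tested, 5 were lower in mouse A and none higher, 22.7% against 6.36% over all genes (median -0.35 against -0.00). Hilpda, a hypoxia-induced lipid droplet protein, was at 68.5, 40.5, 60.4 and 54.4 CPM in mouse A against 160, 152, 97.0 and 112 CPM in mouse C (-1.27, SE 0.20, adjusted p = 0.0031). Ero1l, an oxidase of protein folding, was 26.9 ± 2.47 against 50.9 ± 2.10 CPM (-0.96, adjusted p = 0.00073), Egln3 18.7 ± 3.87 against 36.3 ± 6.14 CPM (-1.002, adjusted p = 0.006), and the glycolytic enzyme Pgam1 120 ± 11.3 against 210 ± 29.1 CPM (-0.86, adjusted p = 0.00441). The fifth was Pfkp (-0.49), whose call was lost in 8 alternatives.

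Receptor genes were called both ways (29.0% against 6.36% over all genes), with 7 of 31 higher in mouse A (Ptafr, Tlr4, Icam1, Ccr1, Clec4d, Fpr1 and Siglece) and 2 lower (Ccrl2 and Fcgr4). Ptafr was 260 ± 20.1 against 147 ± 37.7 CPM (0.78, adjusted p = 0.0125), Tlr4, the lipopolysaccharide receptor, 79.0 ± 14.6 against 41.7 ± 10.2 CPM (0.89, adjusted p = 0.00862), and Ccrl2 51.9 ± 6.34 against 129 ± 24.4 CPM (-1.36, adjusted p = 0.0031). The calls for Icam1, Ccr1, Clec4d, Fpr1, Siglece and Fcgr4 were each lost in at least 5 alternatives, which leaves 2 higher and 1 lower.

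Other lists had few calls. S100a6 was at 6756, 7655, 7682 and 8151 CPM in mouse A and 13600, 12814, 11600 and 11533 CPM in mouse C (-0.75, SE 0.14, adjusted p = 0.00864), and with Hmox1 made 2 calls of 10 on the S100 and iron list. Of 19 interferon genes 2 were higher (Oas3 and Slfn1) and 2 lower (Isg15 and Ifitm1), and of 15 immediate early genes 2 were higher (Jun and Egr1) and 1 lower (Fos, -0.84, adjusted p = 0.00553). The call for Slfn1 was lost in 13 alternatives, for Egr1 in 9, for Ifitm1 in 4, for Isg15 in 2 and for Oas3 in 1. The survival list had 1 call of 10 (Cflar, higher, lost in 8 alternatives), the transcription factors 2 of 18 (Klf6 higher, Cebpb lower), immune regulation 2 of 13 (Wfdc17 and Ptgs2, lower, lost in 5 and 2 alternatives) and lipid mediators 2 of 8 (Plin2 higher, Ptgs2 lower), against 6.36% called over all genes. No call was made by edgeR on the NADPH oxidase (1 of 6 at an unadjusted p under 0.05), proliferation (2 of 10), T cell (1 of 5), epithelial (1 of 9), erythroid (2 of 3) and monocyte and macrophage lists (4 of 8); DESeq2 called 1 gene on the last.

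Most genes with the largest called folds were of low abundance, Spink1 and Tff3 in mouse C excepted. Slc15a2, a peptide transporter, had 112 UMIs in mouse A and 1 in mouse C, a ratio of 75.1 (95% exact counting interval 13.2 to 2990). This interval and that of Gm28723 below pool the tumors of a mouse and cover counting error only, not the spread between tumors. For Slc15a2, tumors 9 and 10 of mouse B had 3.68 and 3.73 CPM against 6.92 to 10.5 CPM in mouse A. Gm43305, Gm20536, Gm42047 and Dlg4 were higher in A by 5.14, 3.03, 2.58 and 2.41 on the log2 scale. The largest negative values were those of Gm28723 (3 UMIs in A and 37 in C, 18.4 times fewer, interval 5.82 to 93.2), Spink1 (-3.89), the lymphocyte gene Cd7 (-3.56), Fcgbp (-3.08) and Tff3 (-2.69). The call for Gm28723 was lost in 7 alternatives, that for Tff3 in 3, those for Spink1, Cd7 and Fcgbp in 2 each and that for Gm43305 in 1. Spink1, Fcgbp and Tff3 are genes of intestinal epithelium and were at 18.9 ± 13.4, 6.85 ± 4.28 and 35.8 ± 17.3 CPM in A and 262 ± 243, 56.2 ± 38.2 and 223 ± 171 CPM in C, while none of the 9 epithelial list genes was called. Spink1 and Tff3 were lower in mouse A in epithelial cells as well (199 against 703 and 358 against 718 CPM) and in macrophages (2.21 against 39.6 and 4.68 against 50.01 CPM), and the part of RNA from other cells was not tested.

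**Figure D4:**
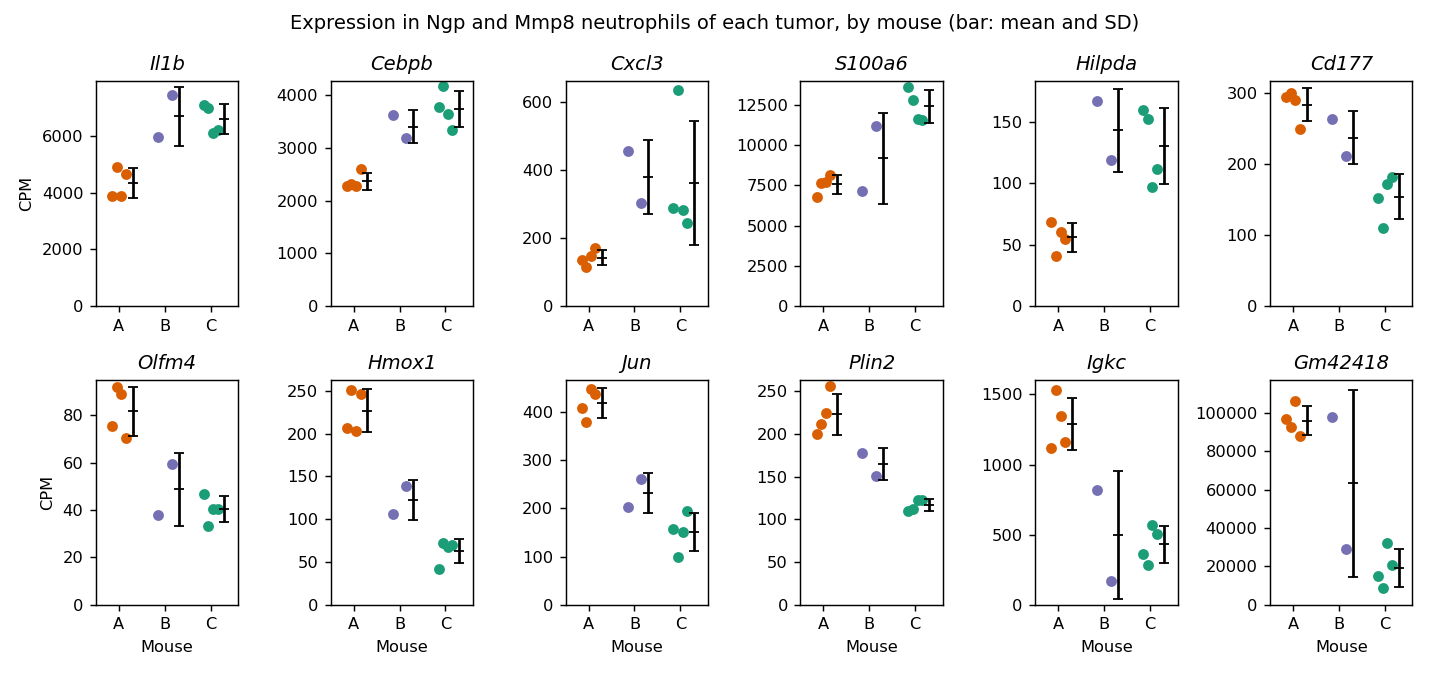
Levels in CPM of 12 genes in Ngp and Mmp8 neutrophils, 1 point per tumor, by mouse (A 4, B 2, C 4 tumors), with mean and SD. Hmox1 and Jun of the 4 tumors of mouse A lie above all of mouse C, and Il1b, Cebpb and S100a6 below.

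Technical and other-cell signals moved with the same contrast. The erythroid list had a median log2 of -3.72 over 3 genes and the T cell list of -1.21 over 5, with no gene called. The epithelial and the monocyte and macrophage lists were at 0.13 and 0.05. Gm42418, a locus that overlaps ribosomal RNA sequence, took 9.59 ± 0.759% of UMIs of the cells in mouse A and 1.92 ± 0.997% in mouse C (log2 2.30, adjusted p = 0.0031), and 9.79 and 2.88% in tumors 9 and 10 of mouse B. It moved in other cells too, with 4.79 and 1.74% in T cells and 4.27 and 1.72% in epithelial cells of mice A and C. Lars2 was 3447 ± 556 against 1061 ± 519 CPM (1.68, adjusted p = 0.00954), and the median mitochondrial share of the cells was 0.509 to 0.668% in mouse A and 0.232 to 0.395% in mouse C. With Gm42418 and Lars2 left out of the sums, 558 genes were called, 555 of them among the 566. The immunoglobulin gene Igkc was 1290 ± 188 against 430 ± 129 CPM (1.56, adjusted p = 0.0163) and also higher in mouse A in T cells (1004 ± 455 against 300 ± 41.4 CPM); it and Igha were the 2 calls of 4 B and plasma cell genes, lost in 2 and 9 alternatives, respectively.

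Most genes called in the cells were called in activated neutrophils too. Of the 566 A-C calls, 378 (66.8%) were called in the same direction in activated neutrophils, which is 37.5% of the 1007 called there (8.43% of 11940 tested). Both populations come from the same libraries and animals. A difference between their mouse effects was tested only for the 20 genes with the largest differences between the populations. An exact permutation test over 70 arrangements was used (smallest p 0.0286). By this exact permutation test 2 genes (Cxcl3 and Il1rn) had p = 0.0286 and 0 passed adjustment (adjusted p = 0.286). A gene at the smallest p passes adjustment only if most of the 20 genes share it. The lack of calls therefore does not show that the mouse effects were equal. The 20 genes were also chosen for the same sign in every tumor, which leaves out genes whose difference changes direction between mice. Levels of the 4 tumors of A and of C did not overlap for 1273 genes (14.3%), of which 524 were among the calls.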

How the data were processed

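Single-cell 3' libraries (10x Chromium v3.1) of 10 colon tumors and 3 samples of adjacent mucosa were analysed. Reads were turned by the authors into UMI counts with Cell Ranger at its default settings, and a filtered matrix of raw counts for 32285 genes was deposited for each library. The submitters' processing notes name version 6.0.0 and mm10, the study's methods name another version, and the gene annotation is not given in the sources used here. Counts hold no correction for free RNA, and no doublets were stated to be removed.

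Members and gene lists were chosen with earlier results of these data known, so no list count is independent evidence. Some list genes are counted but not reported by name here. UMIs were summed per tumor and population, and CPM are a gene's UMIs per 1e6 of these sums. Log2 differences used a pseudocount of 1 CPM. T cells (2 or more Cd3e UMIs), B cells (2 or more Cd79a), epithelial cells (3 or more Epcam, no Ptprc) and macrophages (10 or more C1q) without Csf3r and Cxcr2 served as background. High doublet scores were the top 0.8% per 1000 barcodes by share of simulated doublets among neighbors, after 30 components of 2000 variable genes.

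Mice were compared with the edgeR 4.0.16 quasi-likelihood test (R 4.3.3, TMM factors, filterByExpr) over all 10 tumors with mouse as factor and Benjamini-Hochberg adjustment; genes of the rule stayed in the fit and out of the counts. DESeq2 1.42.0, RLE factors, no filter, other limits on cells, doublets removed and each tumor left out were alternatives; leaving out granule-rich cells, cells rich in monocyte genes, or Gm42418 and Lars2 was chosen after seeing the data. Shares were tested by exact permutation in Python 3.11.15. Scripts were tested on simulated data. Besides the lists, the text names the 10 genes with the largest member-minus-activated difference in each direction (same sign in 10 tumors, at least 50 CPM) and the 5 genes with the largest called fold in each direction between mice A and C; Clec4n and Dusp2 are among the former, while Prnp, Lipg, F630028O10Rik, Gm42418 and Lars2 were chosen after their values were seen. With no statement of separate cultures or sites beyond the tumor, p-values measure the spread between tumors of 3 mice.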

Additional observations from a re-analysis of the deposited data

Results flagged for a closer look

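Of 31 groups of 10 tumors examined for 1 tumor far from the others, 3 showed one, where chance gives about 1.55 (1 in 20). Syne1, a nuclear envelope gene, was at 56.7 CPM in the Ngp and Mmp8 neutrophils of tumor 2, below the next lowest tumor at 95.3 CPM. Dusp2 was at 48.5 CPM in tumor 10 against 30.9 CPM in the next highest tumor, and Csf1 at 32.6 CPM in tumor 8 against 22.1 CPM.

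Outside the tumors, 33 barcodes of the mucosa libraries met the rule, of 85 mucosa neutrophils in all.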

How the results depend on the processing

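No paired analysis was possible because the gene tests compare tumors of different mice, which share no replicate number, and no test compares tumors with mucosa. The description against activated neutrophils was within tumors; with no replicate block (populations compared without pairing by tumor) 21 genes (5 higher, 16 lower) met its limits in place of 51, and without doublets 89 (20 higher, 69 lower). Leaving out single tumors gave 48 to 55.

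The A-C difference in the share of retained barcodes (2.52 percentage points) was 2.02 to 3.27 with each tumor left out. The exact permutation test, of F over all 3 mice and not of this difference, gave p above 0.05 without tumor 4, 5, 6, 8 or 10. The share of neutrophils (20.8%) was 16.2% with a margin of at least 2 UMIs and 25.8% among members and activated cells only. Its A-C difference (4.21 points) was 4.92 with that margin (p of F over 3 mice 0.0413, exact permutation test), and 2.48 to 5.76 with each tumor left out (p = 0.0397 without tumor 1 and 0.0254 without tumor 3).

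The 566 A-C calls became 946 with no filter on low counts (533 shared), 344 with the margin (324 shared), 376 without doublets (285 shared), 700 by DESeq2 (501 shared) and 221 to 876 with each tumor left out. A-B calls (0) became 177 with no filter, 28 by DESeq2 and 0 to 5 with each tumor left out. B-C calls (3) became 182 with no filter, 0 with the margin, 0 without doublets, 45 by DESeq2 and 0 to 10 with each tumor left out. The causes were not tested. Among 58 genes followed between mice A and C, 30 kept their call in every alternative, 28 lost it at least once and 0 changed direction.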

Other observations

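Gene families that were counted after their values were seen add to the A-C comparison. Of 80 nuclear genes of the respiratory chain tested in Ngp and Mmp8 neutrophils, 33 were lower in mouse A and none higher (edgeR, median log2 -0.51), against 6.36% called over all genes. Atp5e was 258 ± 14.8 CPM in mouse A and 403 ± 44.1 CPM in mouse C (-0.69, adjusted p = 0.0142), and Cox7c was 260 ± 14.4 and 427 ± 59.4 CPM (-0.76, adjusted p = 0.013). Of 13 genes encoded in mitochondrial DNA, 4 were higher in mouse A and none lower, among them mt-Nd1 at 976 ± 296 against 461 ± 34.9 CPM (1.03, adjusted p = 0.00669). Of 87 cytosolic ribosomal protein genes, many of which have processed copies that can share reads, 19 were lower and 1 higher (median -0.19).

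The long nuclear RNA Neat1 was 1476 ± 155 CPM in mouse A and 573 ± 192 CPM in mouse C (1.33, adjusted p = 0.00278, edgeR). It was also higher in mouse A in activated neutrophils (1479 against 598 CPM), B cells (122 against 46.4 CPM), epithelial cells (752 against 346 CPM) and macrophages (370 against 174 CPM). In T cells the tumors of both mice overlapped (246 ± 58.2 against 128 ± 47.7 CPM). The share of Gm42418 and the mitochondrial share of the cells moved with the same contrast, and their part in these counts was not tested.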
